A study of Mus musculus with 6 samples.

Results

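The genes of glycolysis and of the response to low oxygen were followed in submandibular glands of mouse embryos, a salivary gland that grows by branching. The set holds 36 genes taken by symbol from the 24067 genes of the deposited table, and every one of them was found. It was read as 24 glycolysis genes (16 enzymes, 4 glucose and lactate transporters and 4 regulatory kinases) and 12 hypoxia response genes (3 for oxygen sensing and 9 targets of hypoxia-inducible factor, HIF). The samples were 3 libraries of glands given Blebbistatin, which inhibits the motor of non-muscle myosin II, and 3 Control libraries. All came from ICR embryos at E13, embryonic day 13. ICR is an outbred mouse stock, and the labels give no genotype beyond it. The labels name no dose, duration, vehicle or number of glands per library. Nor do they tell whether the replicates were separate litters or cultures, so p-values reflect only how these libraries vary, which may be technical. The tissue label is the gland, while the series title names its epithelial buds, and "gland" below stands for either.

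Glycolysis splits glucose into pyruvate in the cytosol, and in tissues that grow fast much of that pyruvate is turned into lactate and exported. Oxygen-dependent prolyl hydroxylases mark the HIF alpha subunits for degradation. When oxygen is short the subunits persist, bind ACGTG or GCGTG in promoters and enhancers, and raise many glycolytic genes together with genes for vessel growth, pH control and collagen maturation. Because HIF1 alpha is controlled mainly as a protein, the level of its mRNA says little about its activity.

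Values are FPKM, in which fragments are divided by transcript length and by library total, so that levels of different genes can be set side by side. Estimated depth was 29100000 to 35500000 fragments per library, and 11453 to 11592 genes reached 1 FPKM. The 10 epithelial markers all averaged at least 1 FPKM. Their summed level was 1406 to 1871 FPKM in Blebbistatin and 1491 to 1908 FPKM in Control libraries. The median marker averaged 116 FPKM for epithelium and 1.05 FPKM for mesenchyme, so the levels below are read as mostly those of epithelium. The 6 end bud markers summed to 410.2 to 525 FPKM in Blebbistatin and 602 to 669 FPKM in Control libraries. These sums do not overlap, although none of the 6 genes passed the test. Sox10, Etv4, Etv5 and Kit were lower in every Blebbistatin library than in any Control library, and Sox9 overlapped. Fgfr2 was the other way, with a mean of 44.0 FPKM in Blebbistatin and 37.0 FPKM in Control libraries and no overlap. Over all genes tested, 14.3% had groups without overlap (7.48% higher and 6.8% lower). The 10 mesenchymal markers summed to 21.7 to 24.0 FPKM in Blebbistatin against 18.9 to 32.3 FPKM in Control libraries. Postn alone gave 10.7 to 19.6 FPKM of these sums and was lowest in Control replicate 1. Every other mesenchymal marker was highest in Control replicate 1. Col3a1, for example, had 7.26 FPKM there and at most 2.18 FPKM in any other library. None of the 7 endothelial or 6 neuronal markers averaged 1 FPKM. The 6 leukocyte markers summed to 1.92 to 2.72 FPKM in Blebbistatin against 2.17 to 3.54 FPKM in Control libraries. The 9 erythroid markers differed most between libraries, with 1.12, 6.76 and 70.7 FPKM in Blebbistatin and 224, 1.94 and 252 FPKM in Control replicates 1 to 3. In bulk RNA, fewer cells of a type cannot be told apart from less RNA per cell. The part of cell composition in the results below was not tested.

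Glycolysis was highly expressed in both groups, and the mRNA of none of its enzymes, transporters or kinases passed the test between Blebbistatin and Control glands. The genes of oxygen sensing and the HIF targets did not pass either. Of the 36 genes, 33 averaged at least 1 FPKM and were tested as log2(FPKM + 1) with limma, with p-values adjusted by the Benjamini-Hochberg method over 11540 genes. None reached an adjusted p of 0.05, where 0.078% of all genes did (9 genes; 4 of them, 0.0347%, higher and 5, 0.0433%, lower in Blebbistatin). None had an unadjusted p under 0.05 either, against 9.36% of all genes (4.46% higher and 4.9% lower). The smallest p in the set was 0.0807 (adjusted p = 0.635, limma), for Hk1. A p that misses the threshold does not show that the groups were alike, so the intervals of the differences are given with the values.

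**Figure D1:**
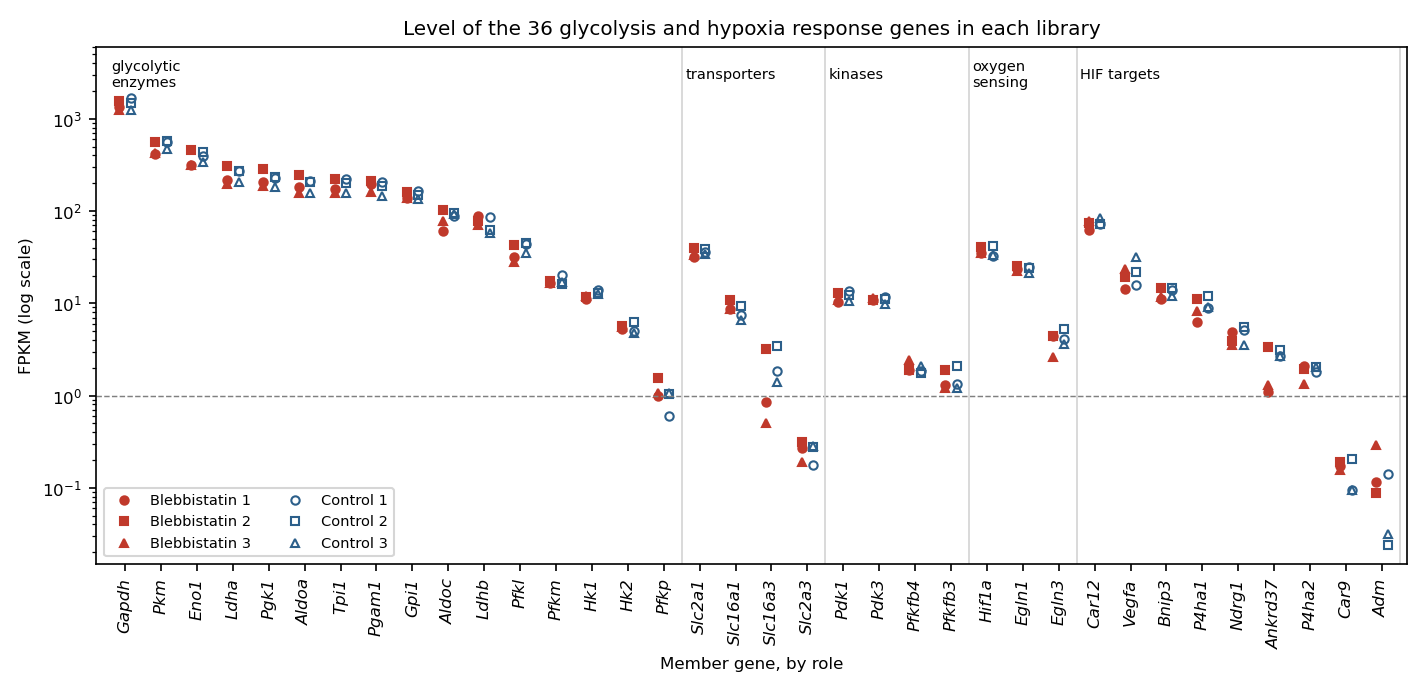
FPKM (log scale) of the 36 genes in each library, ordered by role and then by mean level; filled symbols are Blebbistatin and open symbols Control replicates 1 to 3, and the dashed line marks 1 FPKM. Gapdh stands highest, 3 genes (Slc2a3, Car9 and Adm) lie under 1 FPKM in all libraries, and the groups overlap in all tested genes except Hk1.

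The enzymes span more than 3 orders of magnitude and their order of levels was led by those of the later steps of the pathway. Gapdh, the dehydrogenase that makes the first NADH of the pathway, was highest, with 1343, 1576 and 1252 FPKM in Blebbistatin against 1692, 1474 and 1234 FPKM in Control libraries. It was followed by Pkm (pyruvate kinase), Eno1 (enolase), Ldha (lactate dehydrogenase A), Pgk1 (phosphoglycerate kinase), Aldoa (aldolase A), Tpi1 (triosephosphate isomerase), Pgam1 (phosphoglycerate mutase) and Gpi1 (glucose phosphate isomerase). The last 6 of these lay between 134 and 310.4 FPKM, and neighbours in their order overlapped in their ranges. The enzymes of the entry steps were lower. Hexokinase 1 averaged 11.6 ± 0.483 FPKM in Blebbistatin and 13.2 ± 0.779 FPKM in Control libraries (SD, n = 3 each), and hexokinase 2 averaged 5.51 ± 0.167 FPKM in Blebbistatin and 5.38 ± 0.834 FPKM in Control libraries.

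Hk1, the hexokinase of most tissues, which traps glucose in the cell as its phosphate, was the only tested member whose groups did not overlap. It lies on chromosome 10 (mm10, 62268855 to 62379908, minus strand; Entrez 15275). Its level was 11.2, 11.6 and 12.1 FPKM in Blebbistatin against 14.0, 13.1 and 12.5 FPKM in Control libraries, so that each Blebbistatin library was below each Control library, the closest pair being 12.1 and 12.5 FPKM. The log2 fold change was -0.17 ± 0.08 (SE) with a 95% interval of -0.36 to 0.03. Groups without overlap were found for 14.3% of all genes (7.48% higher and 6.8% lower), so that 1 gene of 33 is under the background share. Hk1 reads lay almost wholly on 1 of its 2 annotated transcripts, NM_001146100, with a share of 97.8% ± 1.96 in Blebbistatin and 98.5% ± 1.88 in Control libraries. The 2 closest library values differ by less than the SD of either group.

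Pfkl, the liver-type phosphofructokinase that catalyses the committed step, had 32.0, 42.8 and 27.9 FPKM in Blebbistatin against 44.0, 44.5 and 34.9 FPKM in Control libraries. The groups overlapped through Blebbistatin replicate 2 and Control replicate 3. Its log2 fold change was -0.27 ± 0.16 with an interval of -0.65 to 0.11 (adjusted p = 0.758, limma), the most negative value among the enzymes. Ldhb, the lactate dehydrogenase subunit of heart, was at the other end with a log2 fold change of 0.21 and an interval of -0.16 to 0.58. Pfkp, the platelet-type phosphofructokinase, was close to it at 0.20, on a level of only 0.602 to 1.54 FPKM.

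Taken as a group, 11 of the 16 enzymes had a negative log2 fold change (against 44.8% of all genes tested), with a median of -0.07 against 0.01 for all genes. One of the 11 is Aldoa, whose value was -0.000145. The count turned to 6 of 16 when Blebbistatin replicate 3 was left out and likewise when Control replicate 1 was left out, so it rests on single libraries. Control replicate 1 was also the library with the highest level of every mesenchymal marker except Postn. The part of this in the count was not tested. The 95% interval lay within -0.5 to 0.5, a change of at most 1.41-fold in either direction, for 10 of the 16 enzymes and for 20 of the 33 tested members, against 80.6% of all genes. Within -1 to 1 lay all 16 enzymes and 31 of the 33 members, the exceptions being Slc16a3 and Ankrd37. For most of the enzymes these libraries therefore bound the difference of the group means on this scale, and for Pfkl, Pkm, Aldoc, Eno1, Pfkp and Ldhb less tightly.

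**Figure D2:**
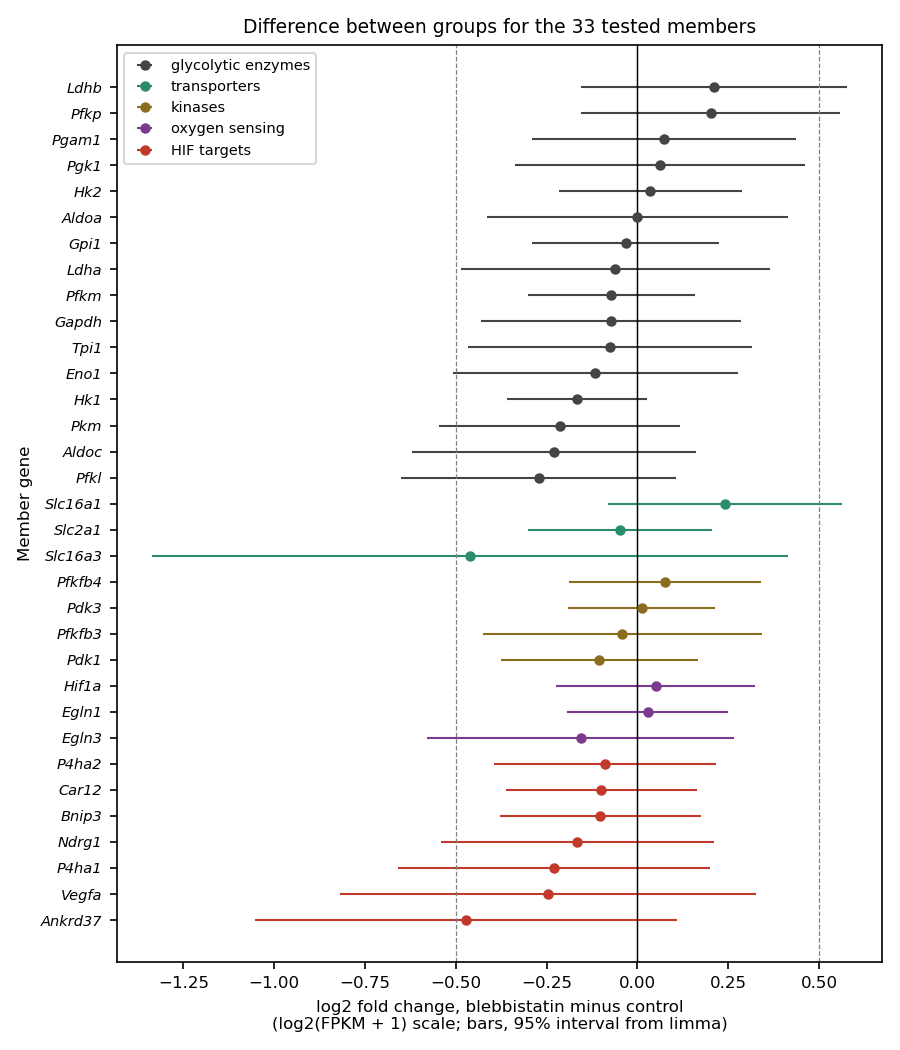
Log2 fold change (Blebbistatin minus Control, log2(FPKM + 1) scale) of the 33 tested genes, by role, with the 95% interval from limma; the solid line is 0 and dashed lines are at -0.5 and 0.5. All intervals include 0, and the widest are those of Slc16a3 and Ankrd37.

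Pyruvate kinase makes pyruvate and ATP in the last step, and the Pkm gene (chromosome 9, mm10, 59656368 to 59679375, plus strand; Entrez 18746) gives a pair of enzymes through 2 mutually exclusive exons. The M1 exon is used in muscle, heart and brain, and the M2 exon in embryonic and proliferating tissue, where the M2 enzyme can be held in a less active form. Both exons are exon 9 of an 11-exon transcript and 167 nt long, M1 at chr9:59675029-59675195 and M2 at chr9:59675568-59675734. They are shown because they alone tell the 2 mRNAs apart in the coding region. Capitals mark the bases at which they differ when laid side by side without gaps, and 103 of the 167 positions (61.7%) are identical. The sequences were read from the GENCODE M21 transcripts (GRCm38), whose exon coordinates are those of the deposited annotation.
Pkm M1 exon: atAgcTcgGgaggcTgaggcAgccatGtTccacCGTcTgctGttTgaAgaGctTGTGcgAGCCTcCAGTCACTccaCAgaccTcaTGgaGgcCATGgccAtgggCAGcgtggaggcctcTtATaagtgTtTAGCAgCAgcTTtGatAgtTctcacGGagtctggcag
Pkm M2 exon: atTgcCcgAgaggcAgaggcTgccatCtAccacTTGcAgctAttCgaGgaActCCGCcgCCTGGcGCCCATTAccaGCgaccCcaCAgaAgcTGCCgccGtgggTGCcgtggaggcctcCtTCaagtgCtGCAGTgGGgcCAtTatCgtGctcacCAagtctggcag

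Nearly all Pkm mRNA was of the M2 form in both groups. The M2 transcript (NM_011099) made up 94.7%, 95.5% and 94.3% of Pkm FPKM in Blebbistatin against 95.6%, 95.3% and 94.7% in Control libraries. These values overlap, and the difference of the means was -0.353 percentage points (two-sided exact permutation test, p = 0.5, where 3 libraries against 3 cannot give less than 0.1). The share test of limma took transcripts with a mean share between 0.05 and 0.95, which this transcript just exceeds. Wider limits of 0.01 and 0.99, chosen after the values were seen, let it enter. The test across all transcripts then gave an adjusted p of 0.9997 (limma).

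The level of the gene was 413, 554 and 422 FPKM in Blebbistatin against 559.8, 568 and 474 FPKM in Control libraries, with overlap through Blebbistatin replicate 2. Its log2 fold change was -0.21 ± 0.14 with an interval of -0.55 to 0.12 (adjusted p = 0.823, limma). The M2 transcript had 391, 529 and 398 FPKM in Blebbistatin against 535, 542 and 449 FPKM in Control libraries. The M1 transcript (NM_001253883) had 22.0, 24.8 and 24.1 FPKM in Blebbistatin against 24.8, 26.6 and 25.4 FPKM in Control libraries. Their log2 fold changes were -0.22 and -0.11, and neither passed the transcript test.

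Across the set, 66 transcripts are annotated, and 23 genes have a single one. Of the 44 transcripts that averaged 1 FPKM none passed the transcript test, where 0.00692% of all transcripts did, and none had an unadjusted p under 0.05, against 8.08% of all transcripts. The smallest p was 0.0796 (adjusted p = 0.694, limma), for the main Hk1 transcript. In the test of shares 9 transcripts of Vegfa, Gapdh and Ldhb entered, with p from 0.364 to 0.996, and no transcript of any gene passed, while 4.66% had an unadjusted p under 0.05 (limma). The smallest p in that test belonged to NM_001287056, a transcript of the vascular growth factor Vegfa, which made up 11.8% ± 2.13 of the gene in Blebbistatin and 13.8% ± 2.21 in Control libraries (SD, n = 3 each). The Gapdh transcript NM_001289726 followed, with 18.3% ± 2.36 in Blebbistatin and 16.4% ± 3.55 in Control libraries. Vegfa has 9 annotated transcripts that overlap widely, so their estimated shares are less certain than those of Pkm.

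Several isozyme families were led by 1 gene in both groups, with a second form beside it. Ldha, the muscle-type subunit that favours lactate formation, made up 75.0% ± 4.53 of lactate dehydrogenase FPKM in Blebbistatin and 78.5% ± 2.68 in Control libraries. Aldoa made up 71.0% ± 3.91 in Blebbistatin and 67.6% ± 3.84 in Control libraries of the aldolases, and Aldoc, the brain-type form, came second. Hk1 held 67.1% ± 0.625 in Blebbistatin and 70.2% ± 3.40 in Control libraries of the hexokinases, and Pfkl 65.0% ± 4.15 in Blebbistatin and 68.6% ± 3.16 in Control libraries of the phosphofructokinases. The pyruvate dehydrogenase kinases had no clear leader, and Pdk1, Pdk2 and Pdk3 each held 28.0% to 36.8%. The mean share of Pdk2 was 30.0% in Blebbistatin and 34.5% in Control libraries, that of Pdk3 32.9% and 30.1%. Pdk4, a low gene, held 3.42% in Blebbistatin and 1.79% in Control libraries. The groups of these 3 shares did not overlap (exact permutation p = 0.1 each, unadjusted), while those of Pdk1 did. Shares within a family depend on each other, so these are not 3 separate results. The level of Pdk3 itself overlapped between groups (log2 fold change 0.01). Among the lactate transporters Slc16a1 held 80.0%, 72.8% and 84.7% in Blebbistatin against 64.2%, 60.7% and 66.9% in Control libraries. All Blebbistatin values were above all Control values there. The difference of 15.2 percentage points had an exact permutation p of 0.1 (two-sided, the smallest possible) and an adjusted p of 0.65 over the leading forms of 13 families, so it did not pass. Hif1a was the other leading form without overlap, with 90.8% ± 0.923 in Blebbistatin and 87.7% ± 0.983 in Control libraries of the 3 HIF alpha genes (exact permutation p = 0.1, adjusted p = 0.65). The level of Hif1a itself overlapped between groups (log2 fold change 0.05). Hif3a held 7.68% ± 1.12 of this family in Blebbistatin and 10.6% ± 1.17 in Control libraries, without overlap.

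**Figure D3:**
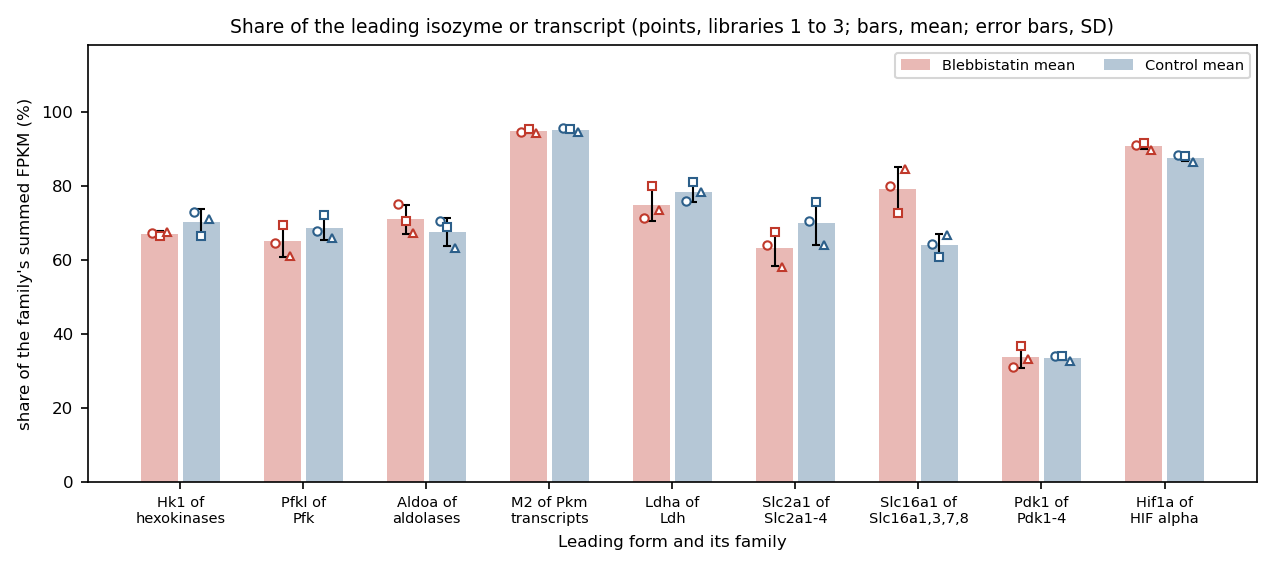
Share (%) of the leading gene or transcript in the summed FPKM of its family for 9 families; bars are the means of 3 libraries, error bars the SD, and points libraries 1 to 3 (circle, square, triangle), with Blebbistatin left of Control. The M2 transcript lies between 94.3% and 95.6% in all 6 libraries, and Slc16a1 and Hif1a are the 2 forms whose groups do not overlap.

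Eno1 is uncertain because the annotation holds a near-identical gene, Eno1b (listed as Gm5506), whose transcript it places on a locus of its own and also over the exons of Eno1. The deposited values put 26.8% to 28.8% of the joint level on Eno1b in every library, all but traces of it on the separate locus. Summed, Eno1 and Eno1b averaged 499.9 ± 111 FPKM in Blebbistatin and 541 ± 61.6 FPKM in Control libraries (SD, n = 3 each; exact permutation p = 0.6). Eno1 alone averaged 364 ± 83.1 FPKM in Blebbistatin and 389.8 ± 48.0 FPKM in Control libraries, so that both readings gave overlapping groups. Exons of 3 other members overlap a gene on the opposite strand (Ankrd37 with Ufsp2, Pfkp with Pitrm1, Tpi1 with Spsb2). The sources used here do not state whether strand was kept, so reads of these pairs may not be told apart.

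The transporters bring glucose in and carry lactate out. Slc2a1, the glucose transporter GLUT1, had 31.7, 40.1 and 33.5 FPKM in Blebbistatin against 35.9, 39.0 and 33.8 FPKM in Control libraries, with a log2 fold change of -0.05 ± 0.11 and an interval of -0.30 to 0.20. Slc16a1 (MCT1, a lactate and pyruvate transporter; Entrez 20501) had 8.58, 10.9 and 8.68 FPKM in Blebbistatin against 7.54, 9.37 and 6.53 FPKM in Control libraries. Its log2 fold change was 0.24 ± 0.14 with an interval of -0.08 to 0.56 (adjusted p = 0.727, limma), and the groups overlap only through Control replicate 2.

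Slc16a3 (MCT4, the exporter of lactate in glycolytic cells and a HIF target) varied more between libraries than between groups. It had 0.849, 3.19 and 0.499 FPKM in Blebbistatin against 1.83, 3.48 and 1.39 FPKM in Control libraries, so that replicate 2 was highest in both groups. The log2 fold change was -0.46 ± 0.38 with an interval of -1.34 to 0.42, and without Blebbistatin replicate 2 it was -0.90 (adjusted p = 0.351, limma, within a range of 0.190 to 0.998 over the alternatives). Slc2a3, the neuronal glucose transporter GLUT3, stayed between 0.178 and 0.310 FPKM, an estimated 19.99 to 36.9 fragments per library, and was not tested.

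The kinases set the rate of glycolysis and the entry of pyruvate into mitochondria, and all 4 had intervals within -0.5 to 0.5. Pdk1, a pyruvate dehydrogenase kinase that holds pyruvate back from the citric acid cycle, had 10.3, 12.9 and 10.7 FPKM in Blebbistatin against 13.6, 12.3 and 10.7 FPKM in Control libraries (log2 fold change -0.10, interval -0.38 to 0.17). Pdk3, of the same family, averaged 11.0 ± 0.265 FPKM in Blebbistatin and 10.9 ± 0.907 FPKM in Control libraries (SD, n = 3 each). The groups of both kinases overlapped. Pfkfb3 and Pfkfb4 make fructose 2,6-bisphosphate, the activator of phosphofructokinase. Pfkfb3 had 1.31, 1.88 and 1.20 FPKM in Blebbistatin against 1.34, 2.10 and 1.20 FPKM in Control libraries, and its log2 fold change was -0.04 (interval -0.43 to 0.34). Pfkfb4 had 1.87, 1.88 and 2.41 FPKM in Blebbistatin against 1.83, 1.76 and 2.09 FPKM in Control libraries, with a log2 fold change of 0.08 (interval -0.19 to 0.34).

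Among the genes of oxygen sensing, Hif1a was well expressed. This gene of the oxygen-regulated HIF1 subunit (chromosome 12, mm10, 73907867 to 73947530, plus strand; Entrez 15251) had 34.7, 41.2 and 35.4 FPKM in Blebbistatin against 32.5, 41.5 and 33.7 FPKM in Control libraries. Replicate 2 was the highest in both groups and the ranges overlap almost fully. The log2 fold change was 0.05 ± 0.12 with an interval of -0.22 to 0.32 (adjusted p = 0.994, limma). Egln1 (PHD2), the main prolyl hydroxylase acting on HIF alpha, had 23.3, 25.6 and 22.5 FPKM in Blebbistatin against 24.9, 23.9 and 21.1 FPKM in Control libraries, a log2 fold change of 0.03 (interval -0.19 to 0.25). Egln3 (PHD3), a hydroxylase that HIF itself raises, had 4.43, 4.39 and 2.63 FPKM in Blebbistatin against 4.08, 5.30 and 3.59 FPKM in Control libraries, a log2 fold change of -0.16 (interval -0.58 to 0.27). None of the 3 separated the groups.

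The HIF targets are the usual readout of low oxygen at the mRNA level. All 7 tested targets had a negative log2 fold change, from -0.47 for Ankrd37 to -0.09 for P4ha2, with a median of -0.17, where 44.8% of all genes were negative. None of the 7 passed and none had groups without overlap. The 2 untested targets, Car9 and Adm, had higher means in Blebbistatin. Car9 averaged 0.172 FPKM in Blebbistatin and 0.132 FPKM in Control libraries, and Adm 0.165 and 0.0656 FPKM. Both rest on few fragments, and their groups overlapped. With a mean of at least 5 FPKM required, 4 of the 4 targets tested were negative, and without Blebbistatin replicate 3 the count was 6 of 7, with P4ha2 at 0.036. The 10 tested hypoxia response genes, the oxygen sensing genes included, had a median of -0.13, and 8 were negative.

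Ankrd37, an ankyrin repeat protein known as a HIF target, had 1.08, 3.34 and 1.30 FPKM in Blebbistatin against 2.69, 3.10 and 2.66 FPKM in Control libraries. Blebbistatin replicates 1 and 3 were below all Control libraries, and replicate 2 was above them. The log2 fold change was -0.47 ± 0.25 with an interval of -1.05 to 0.11 (adjusted p = 0.677, limma), and without Blebbistatin replicate 2 it was -0.80 (adjusted p = 0.132, within a range of 0.132 to 0.973 over the alternatives). P4ha1, a subunit of the enzyme that hydroxylates collagen prolines, had 6.21, 11.0 and 8.23 FPKM in Blebbistatin against 8.91, 11.9 and 9.10 FPKM in Control libraries, a log2 fold change of -0.23 (interval -0.66 to 0.20). Replicate 2 was again the highest in both groups. Ndrg1, a stress-induced gene, had 4.86, 3.87 and 3.50 FPKM in Blebbistatin against 5.18, 5.52 and 3.49 FPKM in Control libraries, a log2 fold change of -0.17 (interval -0.54 to 0.21).

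The remaining targets differed widely in level. Car12, a membrane carbonic anhydrase that helps to set pH outside the cell, was the most abundant at 71.6 ± 7.97 FPKM in Blebbistatin and 76.7 ± 6.98 FPKM in Control libraries (SD, n = 3 each), while Car9, the carbonic anhydrase most used as a marker of hypoxia, lay between 0.0936 and 0.207 FPKM. Car9 and Adm (adrenomedullin, a vasodilator peptide) rested on an estimated 5.01 to 12.99 and 1.002 to 10.2 fragments per library and were not tested. Vegfa averaged 19.1 ± 4.58 FPKM in Blebbistatin and 23.3 ± 8.06 FPKM in Control libraries, and its log2 fold change of -0.25 became -0.00144 without Control replicate 3. Bnip3, a mitophagy receptor, averaged 12.5 ± 1.79 FPKM in Blebbistatin and 13.4 ± 1.41 FPKM in Control libraries.

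A pattern of the set between libraries was singled out after the values were seen. Blebbistatin replicate 2 was the highest Blebbistatin library for 14 of the 16 enzymes (87.5%, against 38.4% of all genes) and for 24 of the 33 tested members (72.7%), and it was the lowest for none of them. Control replicate 3 was the lowest Control library for 13 of the 16 enzymes (81.25%, against 43.3% of all genes) and again for 24 of the 33 members. For the hypoxia response genes the counts were lower: Blebbistatin replicate 2 was highest for 5 of 10 and Control replicate 3 lowest for 5 of 10. Under quantile normalization 14 and 11 of the 16 enzymes followed the 2 libraries, and under median-of-ratios scaling 13 and 13 did. Blebbistatin replicate 1 was the lowest Blebbistatin library for 18 of the 33 members (54.5%, against 34.0% of all genes), and replicate 3 for 15 (45.5%, against 44.7%). These counts describe 6 libraries and were not tested. Ldha shows the pattern, with 219, 310.4 and 195 FPKM in Blebbistatin against 269, 268 and 209 FPKM in Control libraries. Pgk1 had 206, 284 and 187 FPKM in Blebbistatin against 230.4, 231 and 180.3 FPKM in Control libraries. In both genes Blebbistatin replicate 2 was above every other library. Aldoc departed from it among the controls, with 60.6, 102 and 77.1 FPKM in Blebbistatin against 88.9, 94.1 and 92.1 FPKM in Control libraries, which lay close together.

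The 16 enzymes together took 0.630%, 0.771% and 0.591% of the summed FPKM in Blebbistatin against 0.716%, 0.766% and 0.640% in Control libraries. The median deviation of the enzymes from their own mean over the 6 libraries was -0.08, 0.20 and -0.19 on the log2(FPKM + 1) scale in Blebbistatin replicates 1 to 3 and 0.17, 0.09 and -0.14 in Control replicates 1 to 3. For the 33 tested members these medians were -0.08, 0.16 and -0.13 in Blebbistatin and 0.09, 0.12 and -0.12 in Control replicates 1 to 3. Blebbistatin replicates 1 and 3 thus lay below Control replicates 1 and 2. For all genes these medians lay between -0.05 and 0.03. The SD within groups had a median of 0.24 on that scale for the enzymes and 0.21 for all members, against 0.13 for all genes, while the median size of the log2 fold change was 0.07 for the enzymes, 0.10 for all members and 0.08 for all genes. The enzymes thus varied more between libraries of a group than the median gene, with a group difference of about the usual size. Blebbistatin replicate 2 was not extreme in the marker sums of epithelium (1727 FPKM, between 1406 and 1871 in the other 2) or erythroid cells, but had the largest end bud sum of its group (525 FPKM). Control replicate 3 had the smallest epithelial sum of its group (1491 FPKM), its smallest end bud sum (602 FPKM, against 612 and 669 FPKM in the other 2) and its largest erythroid sum (252 FPKM). The part of these differences in the pattern was not tested.

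**Figure D4:**
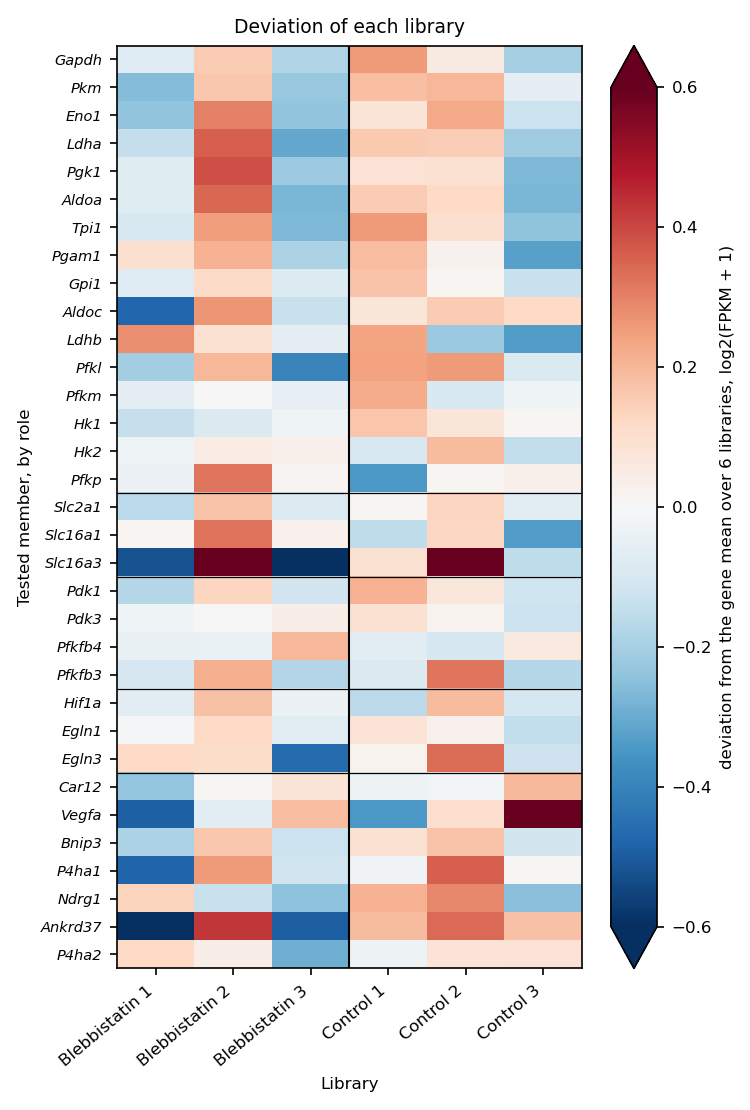
Deviation of each library from the mean of the gene over the 6 libraries, on the log2(FPKM + 1) scale, for the 33 tested genes by role (horizontal lines separate enzymes, transporters, kinases, oxygen sensing and HIF targets; the vertical line separates Blebbistatin from Control; values past 0.6 in size take the end colour). The column of Blebbistatin replicate 2 is mostly above 0 (median 0.20 for the enzymes). Those of Blebbistatin replicates 1 and 3 and of Control replicate 3 are mostly below.

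Promoter sequence is given as a description, not as an independent property: the 36 genes were chosen as genes of glycolysis and of the HIF response, so a high share of the HIF motif is partly set by that choice and supports nothing on its own. RefSeq promoter windows (GRCm38.p6, 250 bases before to 50 after the start) were found for 34 of the 36 genes, all but Ndrg1 and Slc2a3. ACGTG on either strand occurred in at least 1 window of 24 of the 34 genes (70.6%), against 21.8% of all 27025 genes. By window it occurred in 27 of 48 (56.25%) against 19.6%, and GCGTG in 28 of 48 (58.3%) against 32.4%. A palindromic CACGTG, which holds ACGTG on both strands and was counted once, was in 12.5% of member windows and 7.15% of all windows. The windows of the members were also richer in CpG, with a median of 20 CpG and 62.2% G or C, against 7 CpG and 52.7% for all windows. Both motifs contain a CpG, and the part of this in the difference was not tested.

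The enzymes had ACGTG in 10 of 16 genes (62.5%), the hypoxia response members in 9 of 11 (81.8%), and the transporters and kinases in 5 of 7 (71.4%). The windows shown come from 3 roles and have the most matches in them, alone or in a tie resolved by symbol. They are those of Hk1 (chr10:62340372-62340671, minus strand), Slc16a1 (chr3:104638414-104638713, plus strand) and Ankrd37 (chr8:45999801-46000100, minus strand), 5′ to 3′ on the strand of the gene. Ldha has as many matches (5) as Hk1, and Bnip3 and P4ha2 as many (4) as Ankrd37. The 3 genes shown also had the smallest p in their roles. Capitals mark ACGTG and GCGTG and their reverse complements CACGT and CACGC. Hk1 has another window, at chr10:62379859-62380158, without a match. Windows were matched by gene, so which one belongs to the main Hk1 transcript was not determined.
Hk1 promoter: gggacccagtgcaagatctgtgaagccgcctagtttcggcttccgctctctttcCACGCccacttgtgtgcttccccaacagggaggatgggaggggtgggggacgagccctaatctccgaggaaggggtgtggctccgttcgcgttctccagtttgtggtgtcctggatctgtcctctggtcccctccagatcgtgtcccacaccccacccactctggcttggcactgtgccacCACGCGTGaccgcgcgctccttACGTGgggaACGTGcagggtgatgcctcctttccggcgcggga
Slc16a1 promoter: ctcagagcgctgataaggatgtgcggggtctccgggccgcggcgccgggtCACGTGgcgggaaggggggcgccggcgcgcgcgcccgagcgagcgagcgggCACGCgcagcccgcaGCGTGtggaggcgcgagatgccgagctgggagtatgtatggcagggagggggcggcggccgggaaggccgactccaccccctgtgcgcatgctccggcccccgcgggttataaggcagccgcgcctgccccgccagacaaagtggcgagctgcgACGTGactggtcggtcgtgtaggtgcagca
Ankrd37 promoter: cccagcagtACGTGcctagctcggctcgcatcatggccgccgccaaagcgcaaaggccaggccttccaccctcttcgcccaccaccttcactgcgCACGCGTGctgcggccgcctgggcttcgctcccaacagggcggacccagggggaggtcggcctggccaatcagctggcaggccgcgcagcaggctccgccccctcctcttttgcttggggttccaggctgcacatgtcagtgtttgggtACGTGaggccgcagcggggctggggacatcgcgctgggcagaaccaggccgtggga
A match says only that these letters are present, and the log2 fold changes of the 3 genes were -0.17, 0.24 and -0.47.

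Wider lists of the same pathways were read for genes outside the 36. Of 39 other genes of glycolysis and pyruvate use, 24 were tested and none passed. An unadjusted p under 0.05 was found for 3 (1 higher, 2 lower), where 9.36% of all genes had one. This count is near the background. The groups of 6 of the 24 did not overlap (4 higher, 2 lower), against 14.3% of all genes (7.48% higher and 6.8% lower). Slc16a7 (MCT2, a high-affinity lactate and pyruvate transporter) had the smallest p, with 1.01, 0.660 and 0.922 FPKM in Blebbistatin against 1.85, 2.24 and 1.499 FPKM in Control libraries (log2 fold change -0.62 ± 0.14, adjusted p = 0.148, limma). The groups do not overlap, and this gene enters the lactate transporter shares given above. Tigar, which lowers fructose 2,6-bisphosphate, averaged 3.22 ± 0.214 FPKM in Blebbistatin and 2.41 ± 0.121 FPKM in Control libraries (log2 fold change 0.31, adjusted p = 0.285). Pdk2, a further pyruvate dehydrogenase kinase, averaged 10.02 ± 0.972 FPKM in Blebbistatin and 12.6 ± 1.45 FPKM in Control libraries (log2 fold change -0.30, adjusted p = 0.392, limma). The groups of Tigar and of Pdk2 do not overlap either. Slc2a4, the insulin-responsive transporter GLUT4, averaged 20.1 ± 3.46 FPKM in Blebbistatin and 15.3 ± 3.26 FPKM in Control libraries (log2 fold change 0.38, adjusted p = 0.533), and held 36.3% ± 4.97 of glucose transporter FPKM in Blebbistatin and 29.5% ± 5.84 in Control libraries.

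Of 12 other genes of oxygen sensing, 11 were tested, none passed and 1 had an unadjusted p under 0.05, a share no higher than the 9.36% of all genes. This was Hif3a, an alpha subunit whose short forms restrain HIF activity, with 2.77, 3.06 and 3.53 FPKM in Blebbistatin against 3.47, 4.93 and 4.58 FPKM in Control libraries (log2 fold change -0.36 ± 0.13, adjusted p = 0.389, limma). Its groups overlap by a narrow margin. Arnt2, a beta subunit, Hif1an, the asparagine hydroxylase of HIF, and Eloc, a subunit of the ligase that degrades HIF alpha, had log2 fold changes of 0.17, 0.09 and 0.10. Of the 11 tested genes 1, Arnt2, had groups without overlap, against 14.3% of all genes.

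Of 39 other HIF targets, 34 were tested, none passed, 6 had an unadjusted p under 0.05 (2 higher, 4 lower), against 9.36% of all genes, and 24 had a negative log2 fold change, against 44.8% of all genes. Tgfb3, a transforming growth factor beta, came closest to the threshold, with 4.61, 3.97 and 3.32 FPKM in Blebbistatin against 1.88, 2.13 and 1.67 FPKM in Control libraries (log2 fold change 0.78 ± 0.13, adjusted p = 0.0761, limma). Plod1, a lysyl hydroxylase of collagen, averaged 13.1 ± 4.66 FPKM in Blebbistatin and 26.7 ± 4.03 FPKM in Control libraries (log2 fold change -1.02, adjusted p = 0.170). Cxcr4, a chemokine receptor, averaged 9.28 ± 3.16 FPKM in Blebbistatin and 16.2 ± 1.16 FPKM in Control libraries (log2 fold change -0.79, adjusted p = 0.175). The groups of these 3 genes do not overlap, and their directions differ. Of the 34 tested genes 4 had groups without overlap (2 higher, 2 lower), against 14.3% of all genes. Ddit4, an inhibitor of mTORC1 signalling, averaged 29.7 ± 4.78 FPKM in Blebbistatin and 39.3 ± 4.33 FPKM in Control libraries (log2 fold change -0.40, adjusted p = 0.321).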

How the data were processed

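RNA of the gland was purified on RNeasy columns and made into TruSeq RNA libraries, per the labels' protocols. Reads were processed with TopHat2 2.0.13, Bowtie2 2.2.3 and Cufflinks 2.2.1 on mm10, per the submitters' processing notes. The deposited tables give FPKM of RefSeq genes and of transcripts, per the file headers, and the authors' values were used unchanged. Columns abbreviated BB were read as Blebbistatin, and an unnumbered column as replicate 1. FPKM carry no counts, so no count model was used, and depth was estimated from the FPKM that a single fragment adds to a gene of known length.

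Genes with a mean of at least 1 FPKM (11540 of 24067) entered the gene test on the log2(FPKM + 1) scale, run in limma 3.58.1 (R 4.3.3; empirical Bayes with a mean-variance trend, treatment as the only term, Benjamini-Hochberg adjustment over all genes tested, threshold 0.05). Log2 fold changes are on that scale and understate differences of low genes. Errors are the SD over 3 libraries or the moderated SE, and intervals are 95%. Transcripts (14460) were tested alike, and transcript shares (4997) on the arcsine square root scale, for genes whose mean sum was at least 5 FPKM. Shares of isozyme families were compared by two-sided exact permutation tests. The scripts were tested on simulated data.

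The members, the wider lists and the tests were chosen with earlier results of these data known. Given in full are Pkm, Hif1a and, in each role, the 3 members of smallest p. Of each wider list the 4 genes of smallest p are named. Alternatives were another pseudocount, other filters, quantile and median-of-ratios scaling, a replicate block and leaving out each library.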

Additional observations from a re-analysis of the deposited data

How the results depend on the processing

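No member passed under any of the alternatives run. Of 387 recomputed member values 354 kept their direction, and the smallest adjusted p was 0.132 (limma). The number of genes past the threshold, 9 in all, was 1 with no filter, 27 at a mean of at least 5 FPKM, 14 with quantile normalization and 2 with median-of-ratios rescaling. Leaving out 1 library each gave 1 to 19. The transcript count, 1 in all, was 2 at a mean of at least 5 FPKM and 1 to 12 without 1 library, and that of shares, 0 in all, was 0 to 2. Enzymes with lower means numbered 6 to 14 without 1 library, while hypoxia response members and HIF targets with lower means each numbered 4 at a mean of at least 5 FPKM, where fewer genes are tested. Without 1 library, 6 to 7 of the 7 HIF targets had lower means. For the other counts the cause was not tested. The log2 fold change of Pdk3 was -0.0038 with quantile normalization. Those of 17 members changed sign when 1 library was left out, with lowest and highest values of Hk2 at -0.029 to 0.14, Gpi1 at -0.11 to 0.045, Pfkm at -0.13 to 0.022, Aldoa at -0.17 to 0.14, Tpi1 at -0.22 to 0.041, Gapdh at -0.19 to 0.037, Pgk1 at -0.11 to 0.19, Pgam1 at -0.070 to 0.19, Ldha at -0.26 to 0.078, Slc2a1 at -0.15 to 0.019, Pdk3 at -0.049 to 0.060, Pfkfb3 at -0.16 to 0.11, Pfkfb4 at -0.0048 to 0.12, Hif1a at -0.025 to 0.16, Egln1 at -0.039 to 0.076, Egln3 at -0.26 to 0.036 and P4ha2 at -0.17 to 0.036. With a replicate block 144 genes passed and no member did. In that fit 7 members had an unadjusted p under 0.05 (5 lower, 2 higher), against 16.3% of all genes. Slc16a3, Pfkl, Vegfa, Ankrd37 and P4ha1 were the lower ones, and Slc16a1 and Ldhb the higher ones. The smallest adjusted p of a member was 0.190. Same-numbered libraries correlated in their deviations at 0.182, 0.0941 and 0.253, and each library correlated best with its own number, a hint from the data only, since the labels state no pairing. Depth limits Slc2a3, Car9 and Adm, and 3 libraries a group limit the rest.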
